A study of Mus musculus with 4 samples.

Results

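T cells, natural killer (NK) cells and innate lymphoid cells made up 188 of the 11846 lung cells examined, and 127 of the 188 came from aged mice. They were picked by measured values: a cell needed at least 1 unique molecular identifier (UMI, a tag that marks 1 captured RNA molecule) of Ptprc, which encodes the pan-leukocyte protein CD45, and of at least 2 of the 10 genes Cd3e, Cd3d, Cd3g, Trbc2, Ncr1, Klrb1c, Nkg7, Gzma, Il7r and Gata3. Cells with any UMI of Cd79a (B cells), Csf1r (macrophages), Cdh5 (endothelium) or Mcpt8 (basophils) were left out. Of the 188, the 142 with a UMI of Cd3e, Cd3d or Cd3g are called T cells here, and the 46 with none are called CD3-negative cells. The levels of the genes used for or against membership, and of the CD3 genes that split the cells, are therefore given only as a description.

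The study asked how age changes the lung's response to mechanical ventilation, and single-cell RNA sequencing was done on 4 libraries of male wild-type C57BL/6 mice, each a pool of 3 animals. Young mice had an age of 2 to 3 months and aged mice of 22 months, and the labels of every group give a food-restricted diet. Ventilated mice were anesthetised with ketamine, medetomidine and buprenorphine and ventilated for 3 h at a tidal volume of 20.0 mL/kg, while nonventilated mice were naive and had no procedure, so anesthesia, surgery and ventilation cannot be told apart. Left lobes were flushed of blood, digested with Liberase and DNase, and the cells were frozen and thawed before capture with no sort. There was 1 library per group, and the 3 mice of a pool cannot be told apart. No difference between groups therefore has a replicate check, and no test was made. All intervals are 95% intervals that cover counting error only.

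T cells read antigen through a receptor that signals through the CD3 chains. CD8 T cells kill with granules that hold perforin and granzymes, CD4 T cells direct other immune cells, and T cells with a gamma-delta receptor are known in the lung as an early source of interleukin-17 (IL-17). NK cells kill without an antigen receptor. Group 2 innate lymphoid cells are resident in the lung, carry the receptor for interleukin-33 (encoded by Il1rl1) and release IL-5, IL-13 and amphiregulin.

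The RNA of Il5 and Il13, the genes of 2 of these secreted proteins, was found in few cells and at very different levels between libraries. The 250 bases before each start are shown because both hold the letters read by the GATA family, to which Gata3, the factor that defines group 2 innate lymphoid cells, belongs. The sequences are those of RefSeq on GRCm38.p6, Il5 at chr11:53720544-53720793 on the plus strand and Il13 at chr11:53634703-53634952 on the minus strand. Capitals mark a match to AGATAA, to AGATAG, to TGATAA or to TGATAG on either strand.
Il5: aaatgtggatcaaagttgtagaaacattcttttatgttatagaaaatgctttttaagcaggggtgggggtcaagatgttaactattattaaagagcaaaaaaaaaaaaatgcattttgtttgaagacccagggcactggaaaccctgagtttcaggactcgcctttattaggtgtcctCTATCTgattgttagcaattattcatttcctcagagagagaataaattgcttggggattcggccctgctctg
Il13: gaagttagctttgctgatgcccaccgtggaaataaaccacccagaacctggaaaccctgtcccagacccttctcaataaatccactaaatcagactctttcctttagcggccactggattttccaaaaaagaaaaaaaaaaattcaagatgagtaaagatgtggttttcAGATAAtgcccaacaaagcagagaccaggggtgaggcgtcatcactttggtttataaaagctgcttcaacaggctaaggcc
The match of Il5 begins 72 bases before the start, on the reverse strand, and that of Il13 81 bases before it. Such a match lies in the same window of 8714 of 32817 promoters (26.6%), so it is a description of the letters and not a site in use.

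The young nonventilated library held 3630 barcodes, the young ventilated 4497, the aged nonventilated 3901 and the aged ventilated 3400. Cells were kept with 200 to 7500 genes if no more than 10% of their UMIs were mitochondrial, which left 2942, 3327, 3025 and 2552 cells with 36447766, 39916296, 40443939 and 35433321 UMIs. T cells had a median of 9835, 6201.5, 10398.5 and 9114 UMIs, in the same order, and CD3-negative cells of 7720, 9443, 6030.5 and 5833. The young libraries thus hold few cells and few molecules of these types: their T cells sum to 148055 and 100766 UMIs against 685121 and 636606 in the aged libraries. Endothelial cells (a UMI of Cdh5 and none of Ptprc) had a median of 8255, 7847.5, 8981 and 9414.5 UMIs. They serve as a guide to the level of free RNA, for those genes that they do not express themselves. No barcode of these 188 cells occurs in more than 1 library.

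The label was checked against genes that the rule did not use. Trac, the constant part of the alpha receptor chain, had UMIs in 102 of 142 T cells (71.8%) and in 2 of 46 CD3-negative cells (4.35%). Trbc1 or Trbc2, which also served the rule in part, was found in 134 T cells (94.4%) but also in 37 CD3-negative cells (80.4%), both in the NK-like (22 of 25) and in the innate lymphoid-like cells (15 of 21). Transcripts of the beta chain constant region are known from NK and innate lymphoid cells that have no rearranged receptor. Among endothelial cells, 0.0917% or fewer had a UMI of Nkg7 and none had one of Cd3e. A UMI of Gata3 was found in 15.4%, 5.28%, 19.6% and 10.7%, so a Gata3 UMI alone says little. For Gata3, free RNA and RNA of the endothelial cells themselves cannot be told apart here. At the border of the rule, 5, 6, 3 and 5 members had exactly 2 of the 10 genes, and 18, 30, 30 and 23 otherwise eligible cells had exactly 1 and were left out.

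T cells were a larger part of the aged lungs, at both states of ventilation. They were 15 of 2942 cells in the young nonventilated library (0.510%, exact Clopper-Pearson interval 0.286 to 0.840), 14 of 3327 in its ventilated counterpart (0.421%, 0.230 to 0.705), 60 of 3025 in the aged nonventilated (1.98%, 1.52 to 2.55) and 53 of 2552 in the aged ventilated library (2.08%, 1.56 to 2.71). The intervals of the young and the aged libraries do not overlap. The share was 3.89 times higher with age in nonventilated mice (interval 2.18 to 7.38) and 4.94 times higher in ventilated mice (2.70 to 9.63). Over both states together it went from 0.463% of 6269 young cells to 2.03% of 5577 aged cells, a ratio of 4.38 (2.89 to 6.83). Ventilation moved the share by 0.825-fold in young (0.369 to 1.83) and 1.05-fold in aged mice (0.710 to 1.54), intervals that include no difference.

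CD3-negative cells were fewer in the aged libraries under the rule as set, but not clearly so under several alternatives. They were 19, 13, 6 and 8 cells, or 0.646%, 0.391%, 0.198% and 0.313% of the cells, in the order young nonventilated, young ventilated, aged nonventilated, aged ventilated. Pooled over ventilation the aged share was 0.492 times the young (0.242 to 0.948). In ventilated mice alone the ratio was 0.802 with an interval from 0.288 to 2.09. The pooled interval took in 1 with at least 3 of the 10 genes (upper bound 1.07) or exclusion genes allowed at 1 UMI (1.07). It also did with Gzma and Nkg7 left out (1.06) and without cells that had 3 or more genes of another type (1.15). It stayed below 1 with at most 5000 genes (0.995) or 5% mitochondrial UMIs (0.805). Where a UMI of Trac, Trbc1 or Trbc2 also counts as T, 2 cells of each library remain CD3-negative and the lower share with age is lost (ratio 1.12, 0.209 to 6.04), while the share of T cells is 2.43 times higher with age (1.76 to 3.38) in place of 4.38. With each cell thinned to 1000 UMIs before the rule, the CD3-negative cells were 9, 9, 9 and 12. The pooled ratio was then 1.29 (0.656 to 2.58), and that of T cells 5.36 (2.85 to 10.97). Thinning also removes CD3 UMIs, so a T cell can be counted as CD3-negative. T cells fell from 15, 14, 60 and 53 to 7, 5, 29 and 29. The thinned ratio therefore cannot give the share of CD3-negative cells at equal depth. With CD3 as the divide and no thinning, T cells were 44.1% and 51.9% of the lymphoid cells in the young libraries and 90.9% and 86.9% in the aged.

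Other populations also differed between the libraries, which share a fixed total of cells. Cells with a Ptprc UMI were 31.1% and 34.3% of the young and 40.9% and 45.8% of the aged libraries, and endothelial cells were 37.1%, 31.9%, 29.8% and 27.4%. As a share of the Ptprc cells, T cells were still 3.33 times higher in aged mice (2.20 to 5.20) and CD3-negative cells 0.374 times the young share (0.184 to 0.721). B cells (Cd79a and Ptprc, no CD3 gene) were 3.57%, 1.26%, 4.33% and 4.66%, so the aged share was 1.21 times the young in nonventilated (0.931 to 1.58) and 3.69 times in ventilated mice (2.58 to 5.38). In young mice the B cell share was 0.354 times as high after ventilation (0.241 to 0.510).

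CD8 T cells were the largest single part of the gain in aged lungs. T cells with a UMI of Cd8a or Cd8b1 and none of Cd4 numbered 2 of 15, 1 of 14, 25 of 60 and 21 of 53, which is 0.0680%, 0.0301%, 0.826% and 0.823% of all cells. Pooled over ventilation the aged share of cells was 17.2 times the young (5.54 to 86.6). T cells with Cd4 and no Cd8 gene numbered 3, 3, 8 and 14, a ratio of 4.12 (1.62 to 12.4), and 1 aged ventilated cell had both. T cells with a UMI of Trdc or of a Tcrg-C gene (the constant parts of the gamma-delta receptor) and neither Cd4 nor a Cd8 gene numbered 8, 9, 16 and 6. Their aged share was 1.45 times the young with an interval from 0.738 to 2.92, so no gain was detectable at this depth. A Tcrg-C UMI does not prove a gamma-delta receptor, and Trac was also found in 16 of these 39 cells, against 45 of 49 CD8 and 26 of 28 CD4 T cells. The remaining T cells, 2, 1, 11 and 11, had none of these genes.

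Depth bears on these subset shares. With each T cell thinned to 1000 UMIs (1 shallower aged nonventilated cell left out), a Cd8 UMI was seen in 0%, 7.14%, 18.6% and 20.8% of T cells, against 13.3%, 7.14%, 41.7% and 41.5% unthinned. For Cd4 the shares went from 20.0%, 21.4%, 13.3% and 28.3% to 0%, 7.14%, 5.08% and 15.1%, and for Trdc or Tcrg-C from 66.7%, 64.3%, 33.3% and 22.6% to 20.0%, 28.6%, 11.9% and 9.43%. In these values the aged libraries thus kept the higher Cd8 share and the lower Trdc or Tcrg-C share. The young shares rest on only 15 and 14 T cells, so the thinned differences are uncertain. In endothelial cells a Cd8 UMI was found in 0%, 0%, 0% and 0.143%, a Cd4 UMI in 0.556% or fewer and a Trdc or Tcrg-C UMI in 0.287% or fewer. The plot of shares shows each subset against all cells of its library.

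**Figure D1:**
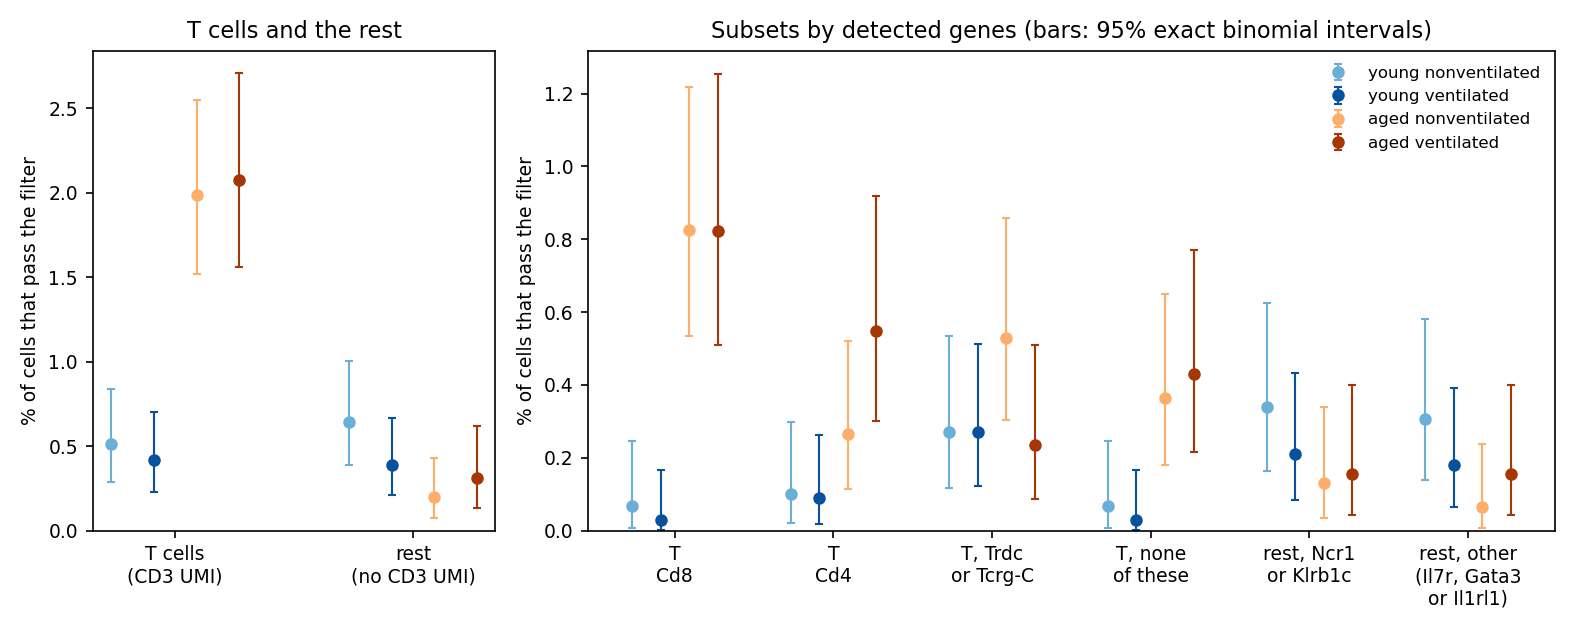
Share of the cells passing the filter (percent, vertical axis) held by T cells, by CD3-negative cells and by their subsets in the 4 libraries, with exact 95% counting intervals as bars. T cells stand at 0.510% and 0.421% in the young and 1.98% and 2.08% in the aged libraries, and CD8 T cells at 0.0680% and 0.0301% against 0.826% and 0.823%.

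Rare T cell types were seen in aged lungs alone, though too few cells were sampled in young lungs to call them absent there. Gzmk, a granzyme known from effector memory CD8 T cells and from an age-associated CD8 population, had UMIs in 0 of 34, 0 of 27, 8 of 66 and 16 of 61 lymphoid cells, and 0 cells, read as up to 3, allow a share of cells with a UMI of up to 8.82% and 11.1% in the young libraries. As a share of all cells the lower limit of its ratio, aged over young, was 6.77. Foxp3, the factor of regulatory T cells, had UMIs in 0, 0, 2 and 5 cells (lower limit 1.62). Of these 7 cells, 6 had Cd4, 7 had Ikzf2, 6 had Ctla4 and 5 had Il2ra, all known in regulatory T cells. Of the 24 cells with Gzmk, 24 had Ccl5 (a chemokine), 16 had Eomes (a factor of effector and memory cells), 16 had Pdcd1 (the inhibitory receptor PD-1) and 13 had Cd8a, against 48.2%, 17.7%, 25.6% and 19.5% of the other 164 lymphoid cells.

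**Figure D2:**
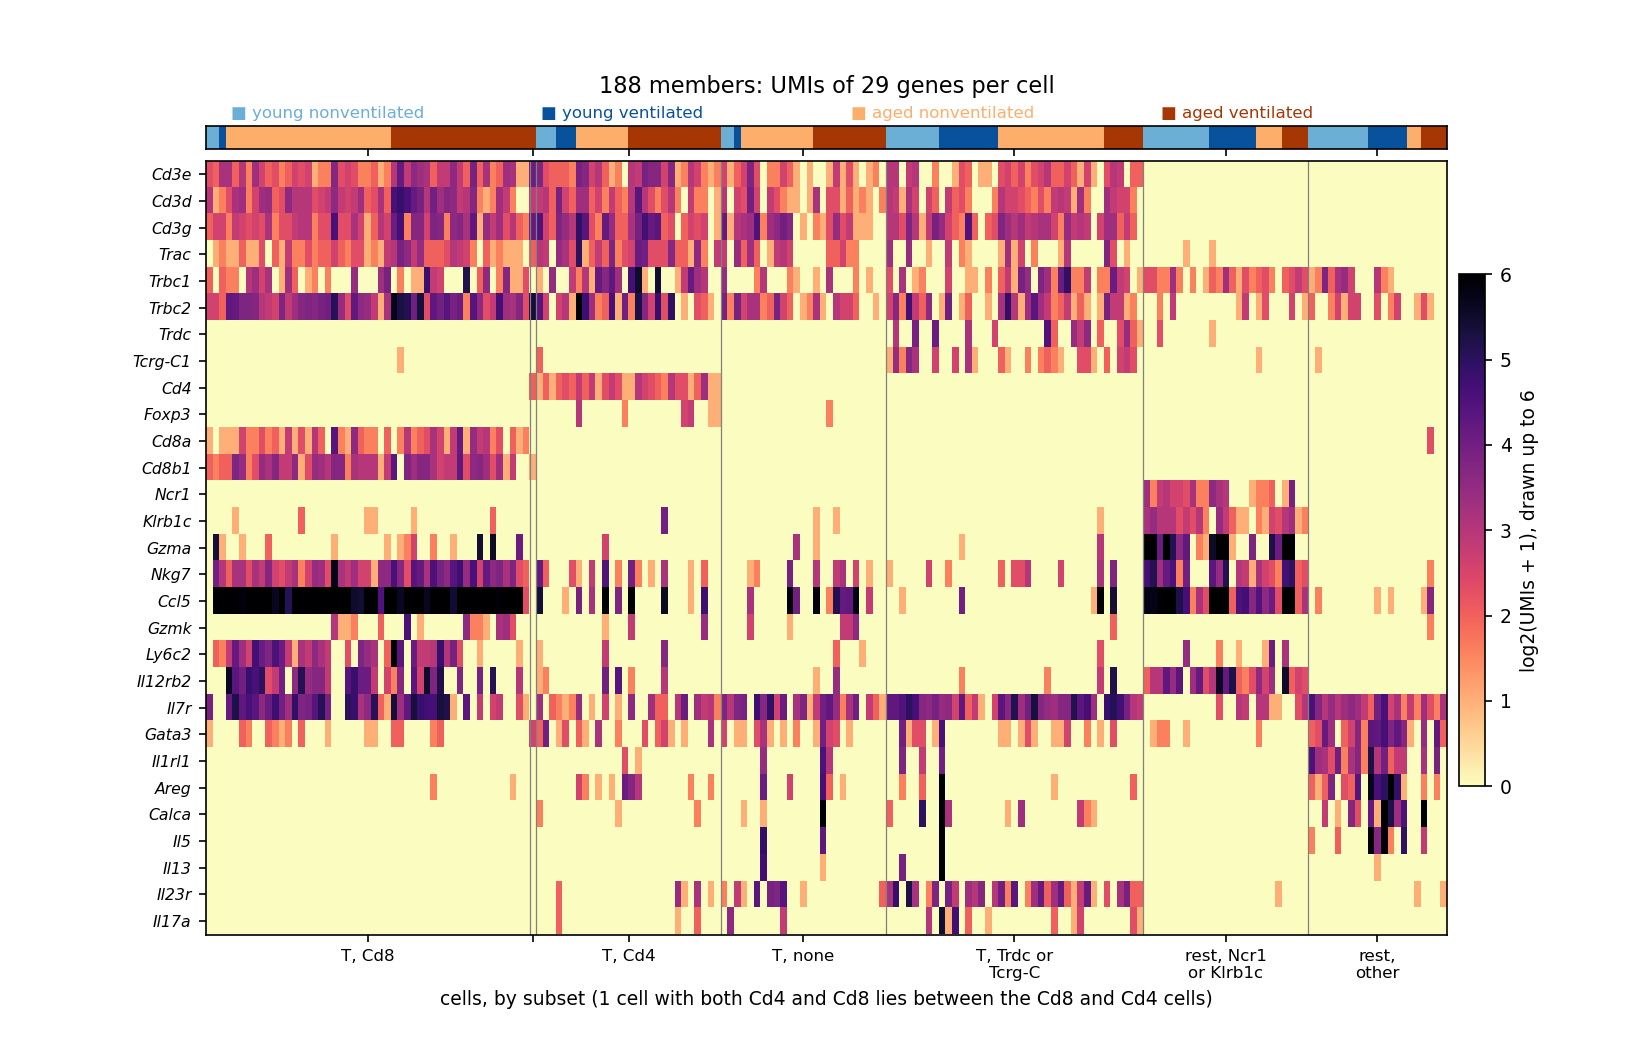
UMIs of 29 genes (rows) in each of the 188 cells (columns), as log2(UMIs + 1) drawn up to 6, with the cells ordered by subset and a strip that gives their library. The block of CD8 T cells is almost wholly from the aged libraries, and the innate lymphoid-like block mostly from the young.

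The levels of genes in the T cells were compared as CPM, the counts scaled to a fixed total of the summed UMIs of a library's T cells, with 1 UMI added to each sum for the log2 ratio. A gene was tested where its mean was at least 50 CPM with at least 20 UMIs in 1 of the libraries, and called past the threshold beyond a 2-fold ratio. A sum mixes how many cells carry a gene with how much each carries, so a shift in subsets and a change within cells cannot be told apart unless a subset is given on its own. The comparisons with age and with ventilation share libraries. Counts over a list leave out the genes of the rule, and since a gene at or near 0 in 1 library can pass the limit only through the other, they are descriptions of the genes that passed.

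With age in nonventilated mice, 149 of 3498 genes (4.26%) were past 2-fold higher and 299 (8.55%) lower in T cells, and the median gene was at -0.16 on the log2 scale. Of all genes past 2-fold, 33.3% were higher when scaled by total UMIs and 43.7% when scaled by median-of-ratios size factors. In ventilated mice 352 of 3480 genes (10.1%) were higher and 450 (12.9%) lower, with a median of -0.13. The lists below are read against these shares.

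Ccl5, a chemokine of cytotoxic T and NK cells, was higher in aged T cells. It had 224, 135, 3599 and 2985 UMIs in the 4 libraries, or 1513, 1340, 5253 and 4689 CPM, in 3 of 15, 3 of 14, 34 of 60 and 33 of 53 T cells. Every CD8 T cell of the aged libraries carried it (25 of 25 and 21 of 21). The ratio with age was 3.47 in nonventilated (3.03 to 3.99) and 3.50 in ventilated mice (2.94 to 4.19), and in each young library most of the UMIs came from 1 cell (182 of 224 and 119 of 135). In endothelial cells 0.275%, 0.283%, 1.00% and 0.573% had a Ccl5 UMI. Cd8a itself had 1, 1, 87 and 91 UMIs and Cd8b1 5, 3, 178 and 165.

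Ly6c2, a surface protein of memory CD8 T cells, had 4, 2, 223 and 223 UMIs (27.0, 19.8, 325 and 350.3 CPM) in 2, 1, 23 and 15 T cells. Il12rb2, a chain of the receptor for the cytokine IL-12, had 3, 2, 406 and 253 UMIs (20.3, 19.8, 593 and 397 CPM) in 2, 1, 25 and 16 cells. Both were largely in the same cells: 40 of the 47 lymphoid cells with Ly6c2 had Il12rb2, against 19.1% of the others. Within CD8 T cells Il12rb2 was found in 21 of 25 and 11 of 21 aged cells and in none of the 3 young ones, and it was also present in most NK-like cells of every library (9 of 10, 7 of 7, 3 of 4 and 4 of 4).

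In nonventilated mice the named genes with the greatest ratios were Ust, Il12rb2, Setbp1 and Hipk2. Ust, a sulfotransferase of the glycosaminoglycan chains, went from 3 to 420 UMIs (log2 ratio 4.51). The DNA-binding protein gene Setbp1 went from 0 to 110 UMIs, which is at least 7.92-fold higher if the 0 is taken as 3 counts. Hipk2, a nuclear kinase, went from 1 to 97 UMIs, a ratio of 21.0 with an interval from 3.67 to 836. In ventilated mice the heat shock genes Hspa1a and Hspa1b and the granzyme gene Gzmk, each at 0 in the young ventilated T cells, were at least 5.59-fold, 5.96-fold and 5.43-fold higher in the aged. Nkg7, a gene of the rule that encodes a protein of cytotoxic granules, had 41, 13, 288 and 354 UMIs. These raw counts are out of 148055, 100766, 685121 and 636606 T cell UMIs and do not compare levels. The list of 14 genes of age-associated and exhausted T cells was chosen with earlier results of these data known. Of its members tested, 2 of 4 were past 2-fold higher and 1 lower in nonventilated mice (median 0.87), and 6 of 8 higher, Gzmk among them, and 1 lower in ventilated mice (median 1.78). Of the cytotoxic granule genes, 1 of 5 was higher and 1 lower in nonventilated mice (median -0.10), and 3 of 7 were higher and none lower in ventilated mice (median 0.78). Of 10 naive and central memory genes, 1 of 6 tested was past 2-fold higher in nonventilated (Ccr7, a lymph node homing receptor) and 4 of 7 in ventilated mice, Lef1, Tcf7 and Klf2 among them.

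Genes of gamma-delta and IL-17 T cells were lower in the summed T cells of aged mice. Il23r, the receptor for the cytokine IL-23 that sustains IL-17 production, had 97, 64, 189 and 55 UMIs, or 655, 635, 276 and 86.4 CPM. The ratio with age was 0.421 in nonventilated (0.328 to 0.544) and 0.136 in ventilated mice (0.0931 to 0.198). In the young nonventilated library 36 of the 97 UMIs were in 1 cell, and without each library's highest cell the log2 ratio in nonventilated mice went from -1.26 to -0.76, short of 2-fold. Of the 16 genes of this list, 6 of the 9 tested were past 2-fold lower in nonventilated mice (median -1.27) and 7 of the 8 in ventilated mice (median -2.93), none higher. Without the highest cells it was 4 of 9 (median -0.76) and 7 of 8 (median -3.00). The receptor genes Trdc (37, 13, 54 and 18 UMIs) and Tcrg-C1 (41, 14, 23 and 19 UMIs) and the homing receptor gene Cxcr6 (96, 70, 176 and 70 UMIs) were among the genes lower on the CPM scale. Within the T cells with Trdc or Tcrg-C, Il23r stood at 1282, 872, 793 and 661 CPM, in 6 of 8, 6 of 9, 14 of 16 and 5 of 6 cells, and it was at 0 in all 49 CD8 T cells. The gap between young and aged was thus smaller within this subset than over all T cells.

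Il17a, which encodes IL-17A, had 18, 75, 15 and 9 UMIs in 2, 6, 4 and 4 T cells, or 122, 744, 21.9 and 14.1 CPM. The young ventilated T cells stood apart, 6.12-fold above the young nonventilated (3.62 to 10.9), with 42 and 25 of the UMIs in 2 cells. As a share of cells the 8 young and 8 aged cells with Il17a differ little (ratio 1.12, 0.368 to 3.44). Of the 16 cells with Il17a, 13 had Il23r, 14 had Il1r1 (the receptor for IL-1) and 11 had Blk (a kinase known in IL-17-producing gamma-delta T cells), against 20.3%, 16.9% and 8.14% of the other 172. Il22, a cytokine that acts on epithelium, was found in 2 young ventilated cells, with 85 and 11 UMIs, and in no other T cell.

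Other named genes that were lower with age rested on few cells. In nonventilated mice Fstl4 (23 against 9 UMIs), Tnfsf11 (which encodes RANK ligand, 45 against 24) and Ptpn13 (125 against 73) led the lower genes beside Tcrg-C1, but 100 of the 125 Ptpn13 UMIs were in 1 cell, and without each library's highest cell its log2 ratio moved from -2.98 to -0.98. In ventilated mice Tmtc2 (139 against 11, with 112 in 1 cell), Il17a, Blk (21 against 5) and Serpinb1a (a protease inhibitor, 83 against 30) led. The young T cells also held group 2 innate lymphoid genes, of which 4 of 7 tested were past 2-fold lower with age in nonventilated mice (median -1.04) and 9 of 10 in ventilated mice (median -2.93), none higher. In the young ventilated library 1 cell, described below, held all 268 UMIs of Areg, 236 of Il13 and 157 of Il5 and 226 of the 234 of Calca, and without each library's highest cell the log2 ratio of Areg in ventilated mice went from -4.87 to 2.43. Without these cells 2 of the 7 genes were lower and 1 higher in nonventilated mice, and 7 of the 10 lower and 1 higher in ventilated mice.

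After ventilation Ly6a was higher, and Nr4a1, Nr4a2, Nr4a3 and Fosb lower, in the T cells of both ages. In young mice 124 of 1559 genes (7.95%) were past 2-fold higher and 263 (16.9%) lower, with a median of -0.16. Of these calls 32.0% were higher when scaled by total UMIs and 45.7% with size factors. In aged mice 154 of 3574 genes (4.31%) were higher and 115 (3.22%) lower, with a median of 0.00. The genes described next are members of lists of interferon-induced, activation and immediate early genes.

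Ly6a, the interferon-induced surface protein Sca-1, was higher after ventilation at both ages. It had 11, 101, 59 and 339 UMIs, or 74.3, 1002, 86.1 and 533 CPM, in 4 of 15, 9 of 14, 21 of 60 and 36 of 53 T cells. The log2 ratio was 3.64 in young (13.5-fold, 7.23 to 27.9) and 2.61 in aged mice (6.18-fold, 4.68 to 8.30), and without each library's highest cell 4.30 and 2.74. All other cells of the libraries, which hold endothelium that is rich in Ly6a, moved by 1.27 and 1.40, from 484 to 1168 and from 425 to 1120 CPM. The part of free RNA in the T cell value was not tested. Within aged subsets it went from 79.9 to 393 CPM in CD8 T cells (12 of 25 against 17 of 21 cells), from 217 to 790 in CD4 T cells and from 65.5 to 868 in T cells with Trdc or Tcrg-C, and in young T cells with Trdc or Tcrg-C from 121 to 571 CPM.

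Irf1, an interferon-induced transcription factor, had 8, 24, 129 and 151 UMIs. Its ratio in young mice was 4.41 (1.92 to 11.3), with 14 of the 24 ventilated UMIs in 1 cell, and in aged mice 1.26 (0.989 to 1.61). Of the 33 interferon-induced genes, 3 of the 5 tested in young T cells were past 2-fold higher (median 2.03, against 0.53 for the same genes in all other cells) and 4 of the 13 tested in aged T cells (median 0.33, with Isg15, Ly6a and Zbp1 among the 4), none lower.

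The NR4A factors, which are induced within an hour by antigen receptor signals, were lower after ventilation. Nr4a3 had 121, 25, 269 and 84 UMIs, or 817, 248, 393 and 132 CPM. That is 0.304-fold in young (0.189 to 0.470) and 0.336-fold in aged T cells (0.260 to 0.431), while all other cells stood at 221, 241, 233 and 171 CPM. Nr4a1 had 53, 16, 102 and 42 UMIs (358, 159, 149 and 66.0 CPM), and Nr4a2 30, 5, 127 and 38 UMIs (203, 49.6, 185 and 59.7 CPM). The 3 genes were thus past 2-fold lower at both ages, with log2 ratios from -1.81 to -1.11. Without each library's highest cell they were so too, from -1.54 to -1.15. Median-of-ratios scaling shifted the ratios of young T cells by 0.18, which leaves Nr4a1 there (-1.11) short of 2-fold. Within aged subsets Nr4a3 went from 168 to 74.5 CPM in CD8, from 262 to 91.4 in CD4 and from 498 to 331 in Trdc or Tcrg-C T cells, and in young T cells with Trdc or Tcrg-C from 1093 to 286.

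Fosb, an immediate early gene that also responds to tissue digestion, had 43, 9, 84 and 18 UMIs (290.4, 89.3, 123 and 28.3 CPM), a log2 ratio of -1.58 in young and -2.06 in aged T cells against -0.34 and -0.52 in all other cells. In young T cells it was -0.81 without each library's highest cell. Among 24 immediate early genes, 2 of the 19 tested were past 2-fold higher and 4 lower in young (median -0.21) and 0 higher and 3 lower in aged T cells (median -0.29). Among 15 activation and tissue residence genes, 3 of 10 were higher and 4 lower in young (median 0.43) and 1 higher and 4 lower in aged T cells (median -0.39). A fall of the whole of either list was therefore not seen. Genes of the T cell receptor complex and its signaling other than those of the rule had medians of 0.00 over 14 genes in young and 0.18 over 18 in aged T cells.

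**Figure D3:**
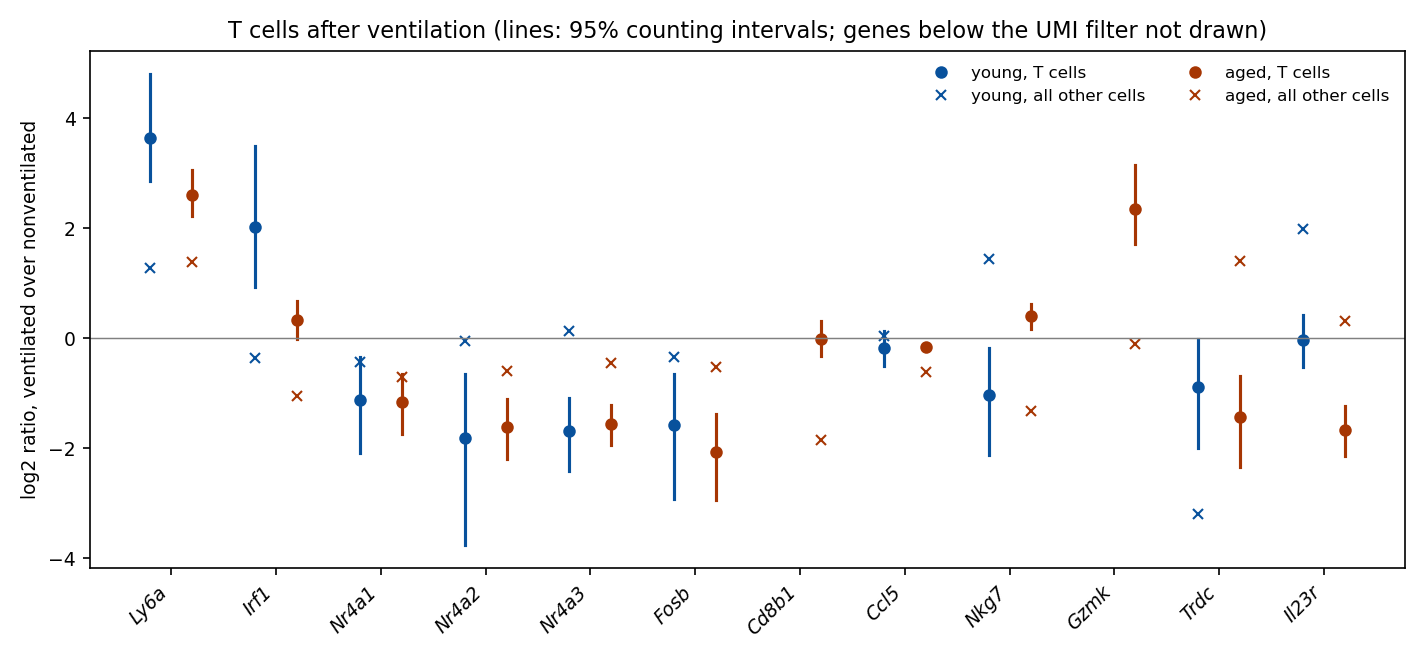
Log2 ratio, ventilated over nonventilated (vertical axis), of 12 genes (horizontal axis) in the T cells of young and aged mice, with 95% counting intervals as bars and crosses for all other cells of the same libraries; genes below the UMI limit at 1 age are not drawn for it. Ly6a lies above 1 and Nr4a1, Nr4a2 and Nr4a3 below -1 at both ages, and Il23r lies near 0 in young and at -1.66 in aged T cells.

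The other genes named for young T cells rest on the small sums of those libraries. Inpp4b, a phosphatase of lipid signals, went from 153 to 6 UMIs after ventilation, Arhgef3 from 48 to 2, Arl5b from 58 to 3 and Atg10 from 27 to 1. Higher were Tmtc2 (10 to 139 UMIs, 112 of them in 1 cell), Elovl6 (1 to 23), Ust (3 to 35) and Ly6a. The 3 genes Inpp4b, Tmtc2 and Ust went the opposite way in aged T cells. Icam1, an adhesion molecule, went from 5 to 29 UMIs in young (8.52-fold, 3.26 to 28.2) and from 77 to 86 in aged T cells (1.20-fold, 0.873 to 1.66), and Ldha, an enzyme of glycolysis, was 2.72-fold higher in young (1.89 to 3.97) and 1.49-fold in aged T cells (1.19 to 1.86).

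In aged mice, T cells with Trdc or Tcrg-C were 6 of 53 in the ventilated library (11.3%, 4.27 to 23.0) and 16 of 60 in the nonventilated (26.7%, 16.1 to 39.7), and CD4 T cells 14 (26.4%, 15.3 to 40.3) and 8 (13.3%, 5.94 to 24.6). Both pairs of intervals overlap. Genes of gamma-delta and IL-17 cells were lower in the sum: Il23r at 0.313-fold (0.228 to 0.425), and 4 of the 7 genes tested of this list past 2-fold lower with none higher (median -1.43). Of the age-associated and exhausted T cell genes, 6 of 9 tested were past 2-fold higher (Gzmk, Pdcd1, Eomes, Entpd1, Tnfsf8 and Sostdc1) and Cxcr6 lower (median 1.19). With Nkg7 of the rule included the median was 1.10, and -0.11 when the cells were thinned to 1000 UMIs, where 3 of the genes could be tested. Gzmk went from 21 to 103 UMIs, in 8 of 60 and 15 of 53 T cells, a ratio of 5.28 (3.28 to 8.89). Within CD8 T cells it was found in 5 of 25 and 9 of 21 cells, at 39.9 and 175 CPM, and Eomes in 9 of 25 and 15 of 21 cells. Pdcd1 was 2.02-fold higher (66 to 124 UMIs).

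Of 15 heat shock genes tested in aged T cells, 5 were past 2-fold higher after ventilation and none lower (median 0.58, against 0.47 in all other cells), and 2 were higher without each library's highest cell. Hspa1a (9 to 106 UMIs) and Hspa1b (14 to 113 UMIs) were carried by 4 and 6 cells of the ventilated library. Cell cycle genes were past 2-fold higher in 7 of 9 tested (median 1.42) in aged T cells and lower in 6 of 7 in young T cells (median -1.63). Without the highest cells it was again 7 of 9 in aged but 1 of 7 in young T cells. Mki67, a marker of dividing cells, shows how few cells this rests on: it had 24 UMIs in the young nonventilated library with 23 in 1 cell, 4 in the young ventilated, 31, all in 1 cell, in the aged nonventilated, and 95 in 8 cells of the aged ventilated.

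The genes named by size in aged T cells after ventilation include markers of other cells. The neutrophil genes S100a8 and S100a9 and Spp1, known from macrophages and epithelium among other cells, were highest (log2 ratios 7.27, 7.17 and 6.83). Next was Ptgs2, an enzyme of prostaglandin synthesis (4 to 126 UMIs, with 120 in 1 cell). The same S100a8, S100a9 and Spp1 also led with age in ventilated mice (4.92, 4.99 and 5.38), where S100a9 turned to -0.33 when at least 3 of the 10 rule genes were asked for. Lower after ventilation were Cdh10 (65 to 6 UMIs), Neto2 (161 to 19), Ckb (62 to 7) and Eya2 (75 to 9). Of the 571 UMIs of S100a8 in aged ventilated T cells, 556 were in 1 cell of 5845 UMIs, which also held 783 of the 803 UMIs of S100a9. That cell had 2 UMIs of Cd3d and 1 of Cd3g, but 0 of Cd3e, Trac, Trbc1 and Trbc2. It also had 16 UMIs of the neutrophil gene Csf3r, so it is a T cell by the rule only. Of 526 Spp1 UMIs, 360 and 146 were in 2 of 6 cells. The cell with 360 was a CD4 T cell with 12 UMIs of Cd3e and 17 of Cd3g. The airway gene Scgb1a1 had 1710 UMIs in this group, with 1665 in 1 cell of 30691 UMIs and 5983 genes. That cell counted as a CD4 T cell through 1 UMI of Cd4, and had 7 UMIs of Cd3e and 24 of Trbc1. Most UMIs of these genes were thus in 1 or 2 cells each. Without each library's highest cell the log2 ratios after ventilation were 2.52 for S100a8, 2.50 for S100a9 and 5.90 for Spp1. S100a8 had UMIs in 14 of 53 ventilated against 3 of 60 nonventilated T cells and S100a9 in 16 against 4. Any cell but the highest had at most 3 UMIs of either. All other cells of the aged libraries moved by 3.67 for S100a8 (216 to 2755 CPM) and by 3.49 for S100a9 (274 to 3078 CPM). For Spp1 they moved by 1.00. The part of free RNA in these T cell values was not tested.

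**Figure D4:**
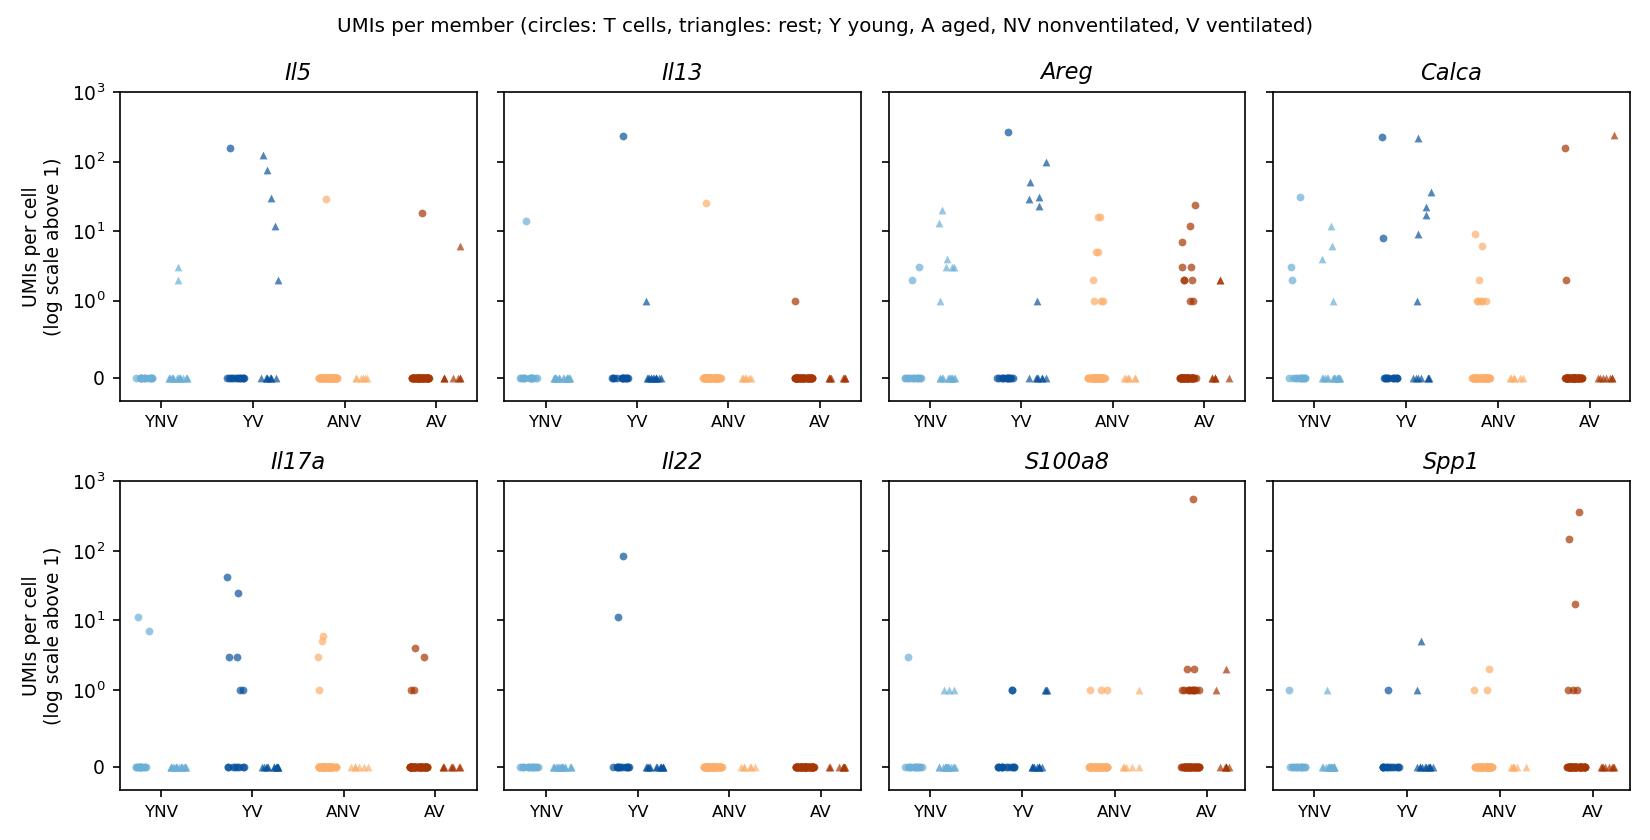
UMIs per cell (vertical axis, linear near 0 and logarithmic above) of Il5, Il13, Areg, Calca, Il17a, Il22, S100a8 and Spp1 in each of the 188 cells, by library, with circles for T cells and triangles for CD3-negative cells. Il22 is found in 2 young ventilated cells, the highest Il5 and Il13 values are in the young ventilated library, and S100a8 on 1 aged ventilated cell with 556 UMIs.

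Genes of other cell types were counted over fixed lists in the T cells. Neutrophil genes summed to 6, 6, 14 and 1482 UMIs, with S100a9 the most abundant in the last and 1 cell with 3 or more of the genes. Epithelial genes summed to 26, 30, 219 and 2005 UMIs (176, 298, 320 and 3150 CPM), led by Scgb1a1, Scgb1a1, Hopx and Scgb1a1, with 3 or more of the genes in 1, 0, 18 and 12 cells. Hopx is also expressed by lymphocytes. Endothelial genes summed to 21, 28, 131 and 140 UMIs, led by Calcrl in the young (11 and 14) and by Pecam1 in the aged libraries (103 and 114), with Cdh5 at 0 by the rule. Fibroblast genes summed to 10, 4, 21 and 57 UMIs, B cell genes to 11, 4, 40 and 64, mostly Ighm, with Cd79a at 0, macrophage genes to 1, 3, 6 and 18 with Csf1r at 0, and basophil genes to 0, 0, 4 and 13. Dendritic cell genes had 1 UMI and platelet and red cell genes 4. Without the cells that had 3 or more genes of any such list, 13, 13, 42 and 39 T cells were left.

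The CD3-negative cells were NK-like or innate lymphoid-like. Those with Ncr1 (the receptor NKp46) or Klrb1c (NK1.1) numbered 10 of 19, 7 of 13, 4 of 6 and 4 of 8, and the others, 9, 6, 2 and 4, had Il7r, Gata3 or Il1rl1. The NK-like cells carried Ccl5 in every cell of every library (10, 7, 4 and 4) and had no UMI of Il1rl1, Il5, Areg or Calca. As a share of cells the aged NK-like cells were at 0.529 times the young (0.198 to 1.29) and the innate lymphoid-like at 0.450 times (0.143 to 1.23), intervals that include no difference. As a share of Ptprc cells the ratios were 0.402 (0.150 to 0.983) and 0.342 (0.109 to 0.932).

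The CD3-negative cells sum to 156617, 127516, 37141 and 53062 UMIs, so the raw counts here do not compare levels between libraries. Gzma, a gene of the rule, had 317, 419, 53 and 262 UMIs in 9, 5, 2 and 2 CD3-negative cells, and Ccl5 595, 466, 52 and 206. The log2 ratio of Gzma with age was -0.48 in nonventilated and 0.59 in ventilated mice. Of its 262 aged ventilated UMIs, 180 were in 1 cell. Prf1, the pore protein perforin, had 28, 32, 5 and 25 UMIs and Klra8, the activating receptor Ly49H, 104, 17, 0 and 18. After ventilation in young mice Klra8 (log2 ratio -2.25) and Klra4 (72 to 1 UMIs) were lower. So were the rule gene Klrb1c (62 to 21) and Eomes (26 to 8). Of 15 tested NK genes 6 were past 2-fold lower and none higher (median -0.88), against 19.6% and 12.3% of all 1766 genes tested. Without each library's highest cell 8 were lower and 1 higher (median -1.04). The young ventilated library had 7 NK-like of 13 CD3-negative cells and the nonventilated 10 of 19, and the Klra genes are each known from a part of NK cells only.

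In young CD3-negative cells, 217 of 1766 genes (12.3%) were past 2-fold higher after ventilation and 346 (19.6%) lower, with a median of -0.15. Of these calls 38.5% were higher when scaled by total UMIs and 48.5% with size factors. Il5 stood out. It had 5 UMIs in 2 of 9 innate lymphoid-like cells of the young nonventilated library and 243 in 5 of 6 of the young ventilated, with 3 and 2 UMIs per cell against 123, 76, 30, 12 and 2. In the aged libraries it had 0 and 6 UMIs. The ratio in young mice was 59.7 (25.2 to 185), and the lowest ventilated cell overlaps the nonventilated ones. Counting T cells too, Il5 was found in 2, 6, 1 and 2 lymphoid cells, so the cells with Il5 were not clearly more (ratio in young mice 2.65, 0.474 to 26.9).

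Areg, which encodes the tissue repair factor amphiregulin, had 47, 232, 0 and 4 UMIs in 7 of 9, 6 of 6, 0 of 2 and 2 of 4 innate lymphoid-like cells. It was 6.06-fold higher in young CD3-negative cells after ventilation (4.42 to 8.48), and in all other young cells it was higher by 2.27 on the log2 scale. Calca, which encodes the neuropeptide CGRP, had 23, 304, 0 and 241 UMIs, 16.2-fold higher in young mice (10.6 to 26.0). Of the 304, 219 were in 1 cell, and without each library's highest cell the log2 ratio in young mice went from 3.96 to 3.14, while all 241 aged ventilated UMIs were in 1 cell. Il1rl1 itself barely moved, with 82 UMIs in 9 of 9 and 73 in 6 of 6 cells of the young libraries (ratio 1.09, 0.787 to 1.52). The higher levels of Il5, Areg and Calca were thus not matched by more receptor RNA. Of 20 group 2 innate lymphoid genes, 6 of 12 tested were past 2-fold higher and none lower (median 1.15).

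The cells with Il5 were alike in other genes. All 11 had Il1rl1 and Il7r, 10 had Gata3, 10 Areg, 10 Calca and 4 Il13, against 7.91% with Il1rl1, 41.2% with Gata3, 14.7% with Areg, 9.04% with Calca and 0.565% with Il13 among the other 177. None of the 11 had Trac or Cd3e, and 3 had Cd3g, which alone placed them among the T cells. The young ventilated cell of this kind held 157 UMIs of Il5, 236 of Il13, 268 of Areg, 226 of Calca and 42 of Il17a, with 10 of Cd3g and 0 of Trac, in 21057 UMIs. The 2 aged cells held 29 and 18 UMIs of Il5. In the aged nonventilated T cell with Il5, Il13 had 25 UMIs and Areg 16, and in the aged ventilated one Calca had 158 and Cd3g 1.

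All UMIs of Il5 in the T cells came from these 3 cells. Il13 had UMIs in 4 cells with Il5 and 1 other, and the 236 UMIs of 1 cell were the highest value. The promoters printed above belong to genes whose RNA was found together in these few cells.

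Ly6a and Irf1 were also higher in young CD3-negative cells after ventilation, with 19 and 83, and 17 and 64 UMIs (ratios 5.37 and 4.62). Of 5 interferon-induced genes tested, 3 were past 2-fold higher (median 2.15). Nr4a1 went from 95 to 30, Nr4a2 from 66 to 9 and Nr4a3 from 156 to 43 UMIs. The directions were those of the T cells. Gem, a GTP-binding protein, was higher (8 to 118 UMIs, in 10 cells), as was the neutrophil chemokine gene Cxcl2 (30 to 453 UMIs), but 426 of these were in 1 cell, and without cells that carried 3 or more genes of another type the log2 ratio went from 4.17 to -0.61. The median of the secreted cytokines tested likewise went from 1.95 (10 genes) to -0.27 (9 genes). Lower were Tnfsf11 (129 to 12 UMIs), Klra4, Lpcat2 and Rasgef1b.

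The aged CD3-negative cells were 6 and 8, too few for more than their values. After ventilation 82 of 536 genes (15.3%) were past 2-fold higher and 58 (10.8%) lower. The share of calls that were higher was 58.6% when scaled by total UMIs and 48.9% with size factors. The named genes were Homer1 (1 to 34 UMIs), Tsc22d2 (2 to 28), Nfkb1 (41 to 269, 157 in 1 cell) and Ccdc88c on the higher side and Lyn (109 to 17), Fam102a, Maf (22 to 4) and Eml4 on the lower. Of the lists, 3 of 4 tested group 2 innate lymphoid genes and 2 of 4 cytotoxic granule genes were higher, none lower, and no NK gene of 5 was past 2-fold.

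With age in nonventilated mice 159 of 1575 genes (10.1%) were past 2-fold higher and 232 (14.7%) lower in CD3-negative cells, and of the calls 40.7% were higher when scaled by total UMIs and 51.1% with size factors. The genes at 0 in the 6 aged cells include Pard3 (183 UMIs in young), Dach2 (148), Tnfsf11 (129), Klra8 (104) and Il1rl1 (82), at least 14.5-fold, 11.7-fold, 10.2-fold, 8.22-fold and 6.48-fold lower. Higher were Maf (7 to 22 UMIs), Clnk, Dgat1 and Lyn (80 to 109). Of 9 tested group 2 innate lymphoid genes, 6 were lower and none higher (median -2.45). In ventilated mice 128 of 1176 genes (10.9%) were higher and 216 (18.4%) lower, and the share of calls that were higher was 37.2% or, with size factors, 55.1%. Il5 (243 to 6 UMIs), Areg, Cxcl2 and Tmtc2 were lower and Homer1, Grap2 (15 to 88 UMIs), Tsc22d2 and Fto higher.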

How the data were processed

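The authors aligned the reads to mm10 with Cell Ranger 7.0.0 at default parameters, which count intronic reads, and deposited 1 matrix of raw UMI counts per gene and barcode for each of the 4 libraries. Their processing after that, a limit of 5000 genes per cell among it, is not in the files. That limit with at most 10% mitochondrial UMIs leaves 2539, 2998, 2497 and 2195 cells. Here barcodes with 200 to 7500 genes and at most 10% mitochondrial UMIs were used. No doublet caller was run, and only the gene limit and the exclusion genes act on doublets in the values given. The removal of cells with 3 or more genes of another type was an alternative.

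The members and the gene lists were chosen with earlier results of these data known. UMIs were summed per library over T cells and over CD3-negative cells, scaled to CPM, and compared as log2 ratios with 1 UMI added. Tested genes had a mean of at least 50 CPM and at least 20 UMIs in 1 library. Shares have exact Clopper-Pearson intervals and ratios of counts exact conditional binomial intervals, at 95%. A count of 0 was read as allowing 3 counts. PCR and capture add error that these intervals do not hold. For thinning, each cell was drawn down to 1000 UMIs with a fixed seed. Genes named by size were, per comparison, the 4 highest and the 4 lowest ratios with UMIs in at least 5 cells of the higher library and an interval that leaves out 1, apart from mitochondrial, hemoglobin, ribosomal protein and unnamed gene models. Genes of the rule, of the subsets and of the lists could be named too, apart from some that are not reported here. Counts and medians of lists leave out the genes of the rule, a choice made after seeing the data. The cells that carried 3 or more genes of another type were found with 9 lists. Alternatives covered the gene and mitochondrial limits, the rule, the scaling, the CPM limit and the depth per cell. Python 3.11.15, NumPy 2.4.6, SciPy 1.17.1, pandas 2.3.3 and Matplotlib 3.10.9 were used, and the scripts were tested on simulated data. Promoter sequences are those of RefSeq on GRCm38.p6, the build of mm10.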

Additional observations from a re-analysis of the deposited data

Results flagged for a closer look

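The results given here were picked out because ventilation moved a gene one way in young and the opposite way in aged mice, each with 1 library per group, so the difference was not tested. In T cells the log2 ratio, ventilated over nonventilated, of Inpp4b was -3.90 in young and 0.91 in aged mice. That of Tmtc2 was 4.22 in young and -1.56 in aged T cells, and that of Ust 3.73 in young and -0.71 in aged. In CD3-negative cells Gem stood at 4.02 in young and -2.88 in aged, Homer1 at -1.76 in young and 3.61 in aged, and Tsc22d2 at -1.18 in young and 2.76 in aged mice, the aged values from 6 and 8 cells.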

How the results depend on the processing

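No paired analysis was possible because each group is 1 library, and no library could be left out of a group. Depth is a further limit. With each cell thinned to 1000 UMIs before the rule, the lymphoid cells were 0.568%, 0.450%, 1.31% and 1.68% of the cells in the library order of the report, so the aged shares were again the higher, and T cells were 76.3% and 70.7% of those in the aged libraries. CD3-negative cells were then 0.304% of the young and 0.393% of the aged cells, but thinning also removes CD3 UMIs. T cells can thus be counted among them, so these values do not give the share of CD3-negative cells at 1 depth. Without thinning, the interval of the ratio of CD3-negative shares, aged over young, took in 1 under several alternatives. Its upper bound was 1.07 with at least 3 of the 10 genes, 1.07 with exclusion genes allowed at 1 UMI and 1.06 with Gzma and Nkg7 left out. Without cells that had 3 or more genes of another type it was 1.15. After thinning, the shares of genes past 2-fold were 9.68% (31 genes tested) in young T cells with ventilation, 9.09% and 9.64% in young and aged CD3-negative cells with ventilation, and 14.3% and 12.8% in nonventilated and ventilated CD3-negative cells with age. The median of age-associated and exhausted genes in aged T cells with ventilation was -0.11. Thinned after the rule, a Cd8 UMI was found in 0%, 18.6% and 20.8% of T cells of the young nonventilated and the aged libraries, a Cd4 UMI in 0%, 5.08% and 15.1%, and a Trdc or Tcrg-C UMI in 20.0%, 28.6%, 11.9% and 9.43% over all libraries. Of the aged nonventilated CD3-negative cells, 16.7% kept Ncr1 or Klrb1c and 33.3% Il7r, Gata3 or Il1rl1.

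Where a UMI of Trac, Trbc1 or Trbc2 also counted, T cells were 94.1%, 92.6%, 97.0% and 96.7% of the lymphoid cells, so the split into T and CD3-negative cells depends on that choice, and the lower share of CD3-negative cells with age was lost. Without cells that had 3 or more genes of another cell type the aged nonventilated share was 1.59%, the log2 ratios with age in nonventilated T cells of Calca and Fosb turned to 0.054 and 0.28, and in young CD3-negative cells with ventilation that of Cxcl2 turned to -0.61 and the median of secreted cytokines to -0.27. With at most 5% mitochondrial UMIs Calca in aged T cells with ventilation turned to -2.90, and with at least 3 of the 10 genes S100a9 in ventilated T cells with age turned to -0.33. With no limit on CPM 12.6% of genes were past 2-fold in aged T cells with ventilation (5744 genes tested). An alternative chosen after seeing the data left out each gene's highest cell in each library. Calca in aged T cells with ventilation then turned to -2.12, Gzma and the median of cell cycle genes in nonventilated T cells with age to 2.04 and 0.22, Areg in ventilated T cells with age to 2.43, and 38.0% of genes were past 2-fold in nonventilated CD3-negative cells with age. With the genes of the rule kept in the group 2 innate lymphoid list, its median with age was -2.20 in ventilated T cells, against -2.93 without them, and -1.88 in nonventilated CD3-negative cells, against -2.45. Where no reason stands beside a value, the cause was not tested. Median-of-ratios scaling shifted the log2 ratios by 0.18 in young T cells and 0.16 in young CD3-negative cells with ventilation, by -0.11 in aged CD3-negative cells with ventilation, and by 0.14 and 0.24 in nonventilated and ventilated CD3-negative cells with age. Of the log2 ratios of named genes 1390 of 1478 values under an alternative lay within 1 of the value as reported on the log2 scale. Of the 1478, 52 turned in sign, 8 of them past 2-fold as reported and 44 within 2-fold. Thinning to 1000 UMIs gave only 11 of these values, since the other genes had too few UMIs left, and 6 of the 11 moved by more than 1. The total therefore says little on depth.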
